A study of Mus musculus with 22 samples.

Results

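The 4 libraries described here hold RNA of primordial germ cells (PGCs) sorted from mouse embryos at E10.5, 2 labelled Tet1-KO and 2 labelled Tet1-WT, of 22 libraries in the series. They are all the libraries of the Tet1 cross that carry this stage label, and every gene of the count table was considered. Both groups came from matings of Tet1-het parents that carried GOF18ΔPE-EGFP, a green fluorescent transgene driven by a Pou5f1 fragment, so all 4 libraries carry that background. Per the labels, RNA of 2 to 6 embryos of 1 genotype, about 1000 to 8000 sorted cells, was pooled for each library. Embryos of both sexes were mixed at this stage. The E12.5 libraries used for comparison came from the same cross with the sexes sorted apart, 2 libraries for each sex and label. The kind of Tet1 allele is not given in the sources used here. Each library is therefore a pool. The p-values rest on the spread between the 2 pools of a group, shared over all 20 libraries of the cross, and that spread may be partly technical.

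PGCs are the embryonic precursors of eggs and sperm. Around this stage they end their migration from the hindgut, settle in the genital ridges, and lose most of the methylation of their DNA. TET1 oxidises methylated cytosine, and in mice it is known for a part in switching on germline genes whose promoters are held silent by methylation. PGCs at this stage express a network of pluripotency genes beside germ cell genes such as Prdm1, Prdm14 and Tfap2c.

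The libraries labelled Tet1-KO held 14884705 and 17188086 counts, against 16499206 and 18375243 in those labelled Tet1-WT. At least 1 count was seen for 15535 and 15695 genes under the Tet1-KO label, against 17567 and 17676 under Tet1-WT. Levels are given as CPM (counts-per-million after TMM scaling), replicate 1 first. A gene passed at an adjusted p under 0.05 in edgeR's quasi-likelihood test, over 17567 genes kept by a filter on low counts, which happens to equal the number detected in Tet1-WT replicate 1. A p written "without KO 1" is the adjusted p with Tet1-KO replicate 1 left out, and WT 1 and WT 2 are the Tet1-WT replicates. The log values of the 2 libraries labelled Tet1-KO correlated across genes at 0.898, against 0.939 for the 2 labelled Tet1-WT. The correlations between libraries of different groups ran from 0.883 to 0.897. Genes are not independent replicates. In the libraries labelled Tet1-KO, 75 genes stood at 5 CPM or more in replicate 1 and at 0 in replicate 2, and 132 the other way round. In those labelled Tet1-WT the same counts were 11 and 10.

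Tet1 itself did not separate the labels at this stage. It had 44.5 and 102 CPM under the Tet1-KO label, against 134 and 76.8 CPM under Tet1-WT (log2 -0.52, SE 0.36, adjusted p = 0.388). Replicate 2 labelled Tet1-KO lay above replicate 2 labelled Tet1-WT, so the groups overlapped, and the groups are called by their labels throughout. Without KO 2 the fall in Tet1 passed, with an adjusted p of 0.0475. Per 1000 CPM of the 13 early PGC genes described next, Tet1 stood at 5.29 and 18.8 CPM under the Tet1-KO label, against 53.2 and 39.3 CPM under Tet1-WT. That ratio also carries the early PGC sum itself, which differed between the labels, so it is no check of the labels. Reads outside a deleted or trapped part of a gene would not show its loss, and which part was altered was not known here. At E12.5, in the same fit, Tet1 had a log2 ratio of -1.73 in females (adjusted p = 0.0303) and -1.57 in males (adjusted p = 0.0553). The E10.5 ratio minus the mean of those 2 was 1.13 (SE 0.44, adjusted p = 0.268 in edgeR's quasi-likelihood test). Why the labels overlapped in Tet1 at E10.5 was not tested. The paralogs did not pass at E10.5 either. Tet2 had 27.0 and 53.4 CPM under the Tet1-KO label, against 44.7 and 46.4 CPM under Tet1-WT (log2 -0.18, SE 0.35, adjusted p = 0.821). Tet3 had 11.4 and 25.6 CPM under the Tet1-KO label, against 36.6 and 35.8 CPM under Tet1-WT (log2 -0.96, SE 1.00, adjusted p = 0.595).

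Of the 17567 genes tested, 721 (4.1%) were higher and 826 (4.7%) were lower in the libraries labelled Tet1-KO, 8.81% in all. The early PGC and pluripotency genes made up the clearest group that rose, and imprinted genes, somatic markers and many zinc finger genes were among those that fell. Of the genes that passed, 476 rose and 693 fell at least 2-fold, and 182 of the falls had no count in either library labelled Tet1-KO, against 29 of the rises with no count in either labelled Tet1-WT. These calls lean on the spread shared with 16 other libraries of the cross: with the 4 libraries fitted alone no gene passed (smallest adjusted p 0.156 by edgeR, with 2420 of 14166 genes at an unadjusted p under 0.05). With 1 library left out at a time, 449 genes passed without WT 2 and 955 without WT 1, and 268 genes (107 higher, 161 lower) passed under all 4 omissions. Genes that passed and are given below with their CPM, with no remark on an omitted library, are among those 268.

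The early PGC genes rose as a group. All 13 measured members were higher in both libraries labelled Tet1-KO than in either labelled Tet1-WT. That separation was shown in that direction by 20.1% of all genes. Of the 13, 11 passed as higher (84.6%, beside 4.1% of all genes). The 13 genes had a median log2 difference of 1.64, against 0 over all genes tested. They summed to 8407 and 5416 CPM under the Tet1-KO label, against 2516 and 1953 CPM under Tet1-WT, while 19 mesenchyme genes summed to 956 and 1677 CPM under the Tet1-KO label, against 2829 and 3329 CPM under Tet1-WT. In pooled RNA, fewer cells of a type and less RNA per cell cannot be told apart. Without WT 2 the count that passed was 4, and without KO 2, the library with more Tet1, it was 12.

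Dppa3, whose maternal protein guards DNA methylation after fertilisation, was the most abundant, at 3341 and 2004 CPM under the Tet1-KO label, against 844 and 732 CPM under Tet1-WT (log2 1.76, SE 0.26, adjusted p = 0.00158). Prdm14, a regulator of PGC specification that represses methyltransferase genes in mouse, had the largest rise in the list, at 119.5 and 52.1 CPM under the Tet1-KO label, against 14.3 and 18.1 CPM under Tet1-WT (log2 2.40, SE 0.40, adjusted p = 0.00278). The groups lay far apart for both genes, although replicate 1 labelled Tet1-KO held more than double the Prdm14 level of replicate 2. Ifitm1, a membrane protein of early PGCs, stood at 823 and 493 CPM under the Tet1-KO label, against 248 and 173 CPM under Tet1-WT (log2 1.64, SE 0.26, adjusted p = 0.00237). Alpl, the alkaline phosphatase long used to stain PGCs, stood at 591 and 468 CPM under the Tet1-KO label, against 205 and 126 CPM under Tet1-WT (log2 1.68, SE 0.28, adjusted p = 0.00307). In each of these genes replicate 1 labelled Tet1-KO was the highest of the 4 libraries.

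Among the other members, Tfap2c, a transcription factor of PGC fate, was highest in replicate 2 labelled Tet1-KO, at 115 and 164 CPM under the Tet1-KO label, against 35.5 and 32.1 CPM under Tet1-WT (log2 2.05, SE 0.39, adjusted p = 0.00646, but adjusted p = 0.0587 without WT 2). Nanos3, an RNA-binding protein that keeps migrating PGCs alive, had 49.2 and 39.7 CPM under the Tet1-KO label, against 14.7 and 11.1 CPM under Tet1-WT (log2 1.78, SE 0.33, adjusted p = 0.00492, but adjusted p = 0.0568 without WT 2). Prdm1, which represses the somatic programme, had 134 and 90.9 CPM under the Tet1-KO label, against 46.8 and 30.2 CPM under Tet1-WT (log2 1.55, SE 0.35, adjusted p = 0.015, but adjusted p = 0.0711 without KO 1 and 0.133 without WT 2). These 3 genes passed with all 4 libraries and lost the call with Tet1-WT replicate 2 left out. The 2 members that did not pass were Kit and Rhox6. Kit, the receptor that migrating PGCs need, had 612 and 342 CPM under the Tet1-KO label, against 234 and 173 CPM under Tet1-WT (log2 1.23, SE 0.39, adjusted p = 0.0626, but adjusted p = 0.0288 without KO 2). Rhox6, an X-linked homeobox gene with a near copy in Rhox9, had 572 and 403 CPM under the Tet1-KO label, against 179 and 187 CPM under Tet1-WT (log2 1.41, SE 0.44, adjusted p = 0.0558).

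**Figure D1:**
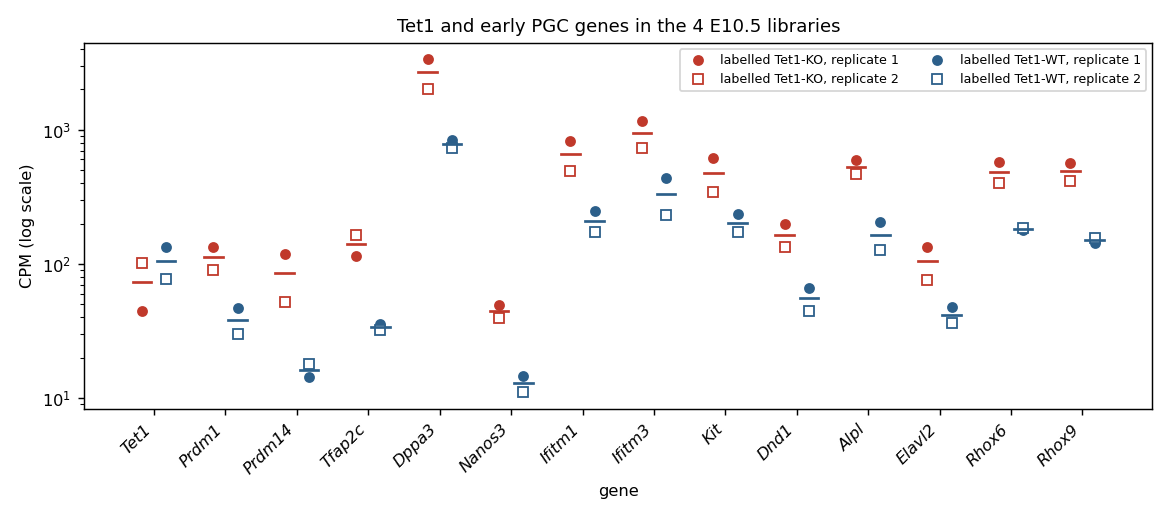
CPM (log axis) of Tet1 and 13 early PGC genes in each E10.5 library, with the libraries labelled Tet1-KO in red left of those labelled Tet1-WT in blue, and bars at group means. Tet1 overlaps between the labels (44.5 and 102.0 CPM against 133.9 and 76.8 CPM), while all 13 early PGC genes are higher in both libraries labelled Tet1-KO.

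Pluripotency genes rose with them: 16 of 26 tested members passed as higher (61.5%, beside 4.1% of all genes) and none as lower. The list's median log2 difference was 1.5. Sall4, a zinc finger factor that partners Pou5f1, had 1266 and 924 CPM under the Tet1-KO label, against 426 and 319 CPM under Tet1-WT (log2 1.55, SE 0.22, adjusted p = 0.00126). Sox2, a core pluripotency factor, had 81.8 and 99.8 CPM under the Tet1-KO label, against 29.9 and 15.9 CPM under Tet1-WT (log2 1.99, SE 0.30, adjusted p = 0.00174). Pou5f1, whose regulatory fragment drives the reporter used for sorting, had 277 and 171 CPM under the Tet1-KO label, against 81.6 and 41.0 CPM under Tet1-WT (log2 1.87, SE 0.29, adjusted p = 0.00194). Both libraries labelled Tet1-KO were above both labelled Tet1-WT for all 3 genes. Dppa2 and Dppa4, chromatin proteins that work as a pair, rose by close amounts. Dppa2 had 45.7 and 34.2 CPM under the Tet1-KO label, against 12.2 and 13.3 CPM under Tet1-WT (log2 1.65, SE 0.25, adjusted p = 0.00186). Dppa4 had 174 and 183 CPM under the Tet1-KO label, against 49.1 and 74.9 CPM under Tet1-WT (log2 1.52, SE 0.25, adjusted p = 0.00304). Nanog had 202 and 185 CPM under the Tet1-KO label, against 58.7 and 34.2 CPM under Tet1-WT (log2 2.06, SE 0.39, adjusted p = 0.00558, but adjusted p = 0.0642 without WT 2).

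Not all of the network moved the same way. Klf4 had 0 and 0.548 CPM under the Tet1-KO label, against 3.50 and 2.38 CPM under Tet1-WT (log2 -3.35, SE 1.12, adjusted p = 0.0758). Tbx3 had 24.7 and 32.5 CPM under the Tet1-KO label, against 68.3 and 122 CPM under Tet1-WT (log2 -1.73, SE 0.75, adjusted p = 0.162). Lin28b, an inhibitor of let-7 maturation, had 35.4 and 42.5 CPM under the Tet1-KO label, against 52.7 and 87.3 CPM under Tet1-WT (log2 -0.85, SE 0.43, adjusted p = 0.226). In these 3 genes both libraries labelled Tet1-KO lay below both labelled Tet1-WT, without passing the test. Klf4 passed as lower without KO 2 (adjusted p = 0.00861). Tbx3 and Lin28b are also expressed in somatic cells of the embryo. Without WT 2 the number of pluripotency genes that passed as higher was 7, and without KO 2 it was 15.

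The mesenchyme sums given above ran opposite to the germ cell sums. The 27 pluripotency genes summed to 4165 and 3149 CPM under the Tet1-KO label, against 1660.5 and 1454.5 CPM under Tet1-WT. With the mesenchyme level as a covariate no gene passed in edgeR's test (smallest adjusted p 0.0506, with 2287 genes at an unadjusted p under 0.05). The mesenchyme sums did not overlap between the labels at E10.5, so that level and the label cannot be told apart.

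**Figure D2:**
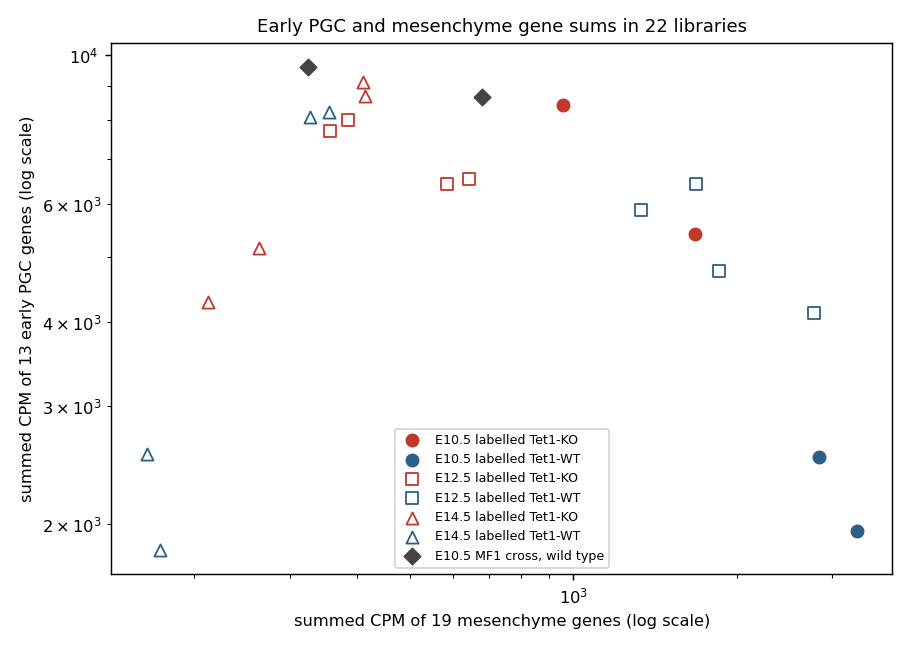
Summed CPM of 13 early PGC genes against summed CPM of 19 mesenchyme genes (both log axes) in all 22 libraries; filled circles are the 4 E10.5 libraries of the Tet1 cross, red labelled Tet1-KO and blue labelled Tet1-WT. The 2 E10.5 libraries labelled Tet1-WT combine the highest mesenchyme sums (2829 and 3329 CPM) with early PGC sums of 2516 and 1953 CPM.

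Of the 19 mesenchyme genes, 18 were lower in both libraries labelled Tet1-KO, a separation that 25.1% of all genes showed in that direction. The median log2 difference was -1.46, and 3 passed, all as lower (15.8%, beside 4.7% of all genes). Nr2f2, a nuclear receptor of mesenchyme, had 141 and 328 CPM under the Tet1-KO label, against 623 and 769 CPM under Tet1-WT (log2 -1.57, SE 0.39, adjusted p = 0.0232, but adjusted p = 0.126 without KO 1 and 0.117 without WT 2). Meis1, a homeobox factor, had 130.3 and 262 CPM under the Tet1-KO label, against 476 and 641 CPM under Tet1-WT (log2 -1.51, SE 0.39, adjusted p = 0.0288, but adjusted p = 0.153 without KO 1 and 0.156 without WT 2). Prrx1, a homeobox gene of limb and body wall mesenchyme, had 23.9 and 15.4 CPM under the Tet1-KO label, against 68.2 and 120.4 CPM under Tet1-WT (log2 -2.26, SE 0.53, adjusted p = 0.0197, but adjusted p = 0.0626 without KO 2 and 0.211 without WT 2). In each gene the groups were apart, with the call resting on particular libraries. Without WT 2 none of the 19 passed, without KO 1 a single one did, and without KO 2 the number was 6.

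Of 34 Hox genes, which pattern the trunk and are not PGC genes, none was higher in both libraries labelled Tet1-KO and 21 were lower in both (25.1% of all genes were), with sums of 129 and 192 CPM under the Tet1-KO label, against 337 and 453 CPM under Tet1-WT. Hoxd10 alone passed (2.94% of the list, beside 4.7% of all genes as lower), and 3 Hox genes did without KO 1. It had 7.54 and 2.68 CPM under the Tet1-KO label, against 34.2 and 49.97 CPM under Tet1-WT (log2 -3.04, SE 0.81, adjusted p = 0.0351, but adjusted p = 0.0983 without KO 2, 0.0701 without WT 1 and 0.179 without WT 2). The 39 collagen genes tested had a median log2 difference of -1.34 (-1.13 with genes at 0 set to their bound). Of them 2 passed as lower (5.13%), and 6 without KO 2. Col25a1, a transmembrane collagen, was nearly gone, at 0.137 and 0 CPM under the Tet1-KO label, against 19.7 and 18.6 CPM under Tet1-WT (log2 -8.09, SE 1.32, adjusted p = 0.0026). Col6a2 had 0 and 0 CPM under the Tet1-KO label, against 5.99 and 0.540 CPM under Tet1-WT (at least 17.6-fold lower, adjusted p = 0.0329, but adjusted p = 0.0984 without KO 1, 0.0868 without KO 2 and 0.146 without WT 1), with the Tet1-WT level carried by replicate 1.

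Of 14 endothelial genes tested 4 fell (28.6%, beside 4.7% of all genes), all at or near 0 in the libraries labelled Tet1-KO. Emcn, a surface sialomucin, had 0 and 0 CPM under the Tet1-KO label, against 13.3 and 6.32 CPM under Tet1-WT (at least 53.1-fold lower, adjusted p = 0.0122). Esam, an adhesion molecule of endothelial junctions, had 0 and 0 CPM under the Tet1-KO label, against 4.69 and 5.62 CPM under Tet1-WT (at least 27.9-fold lower, adjusted p = 0.0124). Ramp2, a receptor accessory protein, had 0.0685 and 0 CPM under the Tet1-KO label, against 6.89 and 4.70 CPM under Tet1-WT (log2 -7.22, SE 1.72, adjusted p = 0.0221, but adjusted p = 0.0655 without KO 2, 0.0544 without WT 1 and 0.0578 without WT 2). Tek, the angiopoietin receptor, had 0 and 0 CPM under the Tet1-KO label, against 6.67 and 0.810 CPM under Tet1-WT (at least 20.2-fold lower, adjusted p = 0.0433, but adjusted p = 0.131 without KO 1, 0.119 without KO 2, 0.156 without WT 1 and 0.0615 without WT 2). The 15 listed genes summed to 33.2 and 26.6 CPM under the Tet1-KO label, against 84.4 and 55.8 CPM under Tet1-WT. The coelomic epithelium and gonadal ridge genes summed to 98.0 and 197.7 CPM under the Tet1-KO label, against 351.7 and 231.1 CPM under Tet1-WT. Of these 11 genes 1 passed (9.09%, beside 8.81% of all genes).

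Erythroid genes differed more between libraries of 1 label than between labels. They summed to 1167 and 25.6 CPM under the Tet1-KO label, against 139.3 and 1852 CPM under Tet1-WT, and none of 10 passed. The embryonic globin gene Hbb-y, for example, had 502 and 8.88 CPM under the Tet1-KO label, against 63.8 and 851 CPM under Tet1-WT (log2 -0.84, SE 1.36, adjusted p = 0.763). Macrophage and blood genes summed to at most 9.1 CPM in any of the 4, with 8 of them at 0 in all, and none of 14 passed. None of 12 neural genes passed, and their sums were 33.9 and 64.4 CPM under the Tet1-KO label, against 108.4 and 110.2 CPM under Tet1-WT. Of 8 hindgut epithelium genes, the 2 claudins passed as higher (25%, beside 4.1% of all genes). The list as a whole was split, with 4 positive and 4 negative log2 ratios. Its 12 genes summed to 150.7 and 183.7 CPM under the Tet1-KO label, against 199.2 and 108.0 CPM under Tet1-WT, so the sums overlapped. Cldn6 had 4.87 and 9.15 CPM under the Tet1-KO label, against 0.565 and 0.810 CPM under Tet1-WT (log2 3.34, SE 0.66, adjusted p = 0.00713, but adjusted p = 0.0551 without WT 1). Cldn7 had 63.4 and 44.0 CPM under the Tet1-KO label, against 19.1 and 9.35 CPM under Tet1-WT (log2 1.91, SE 0.45, adjusted p = 0.0184, but adjusted p = 0.0756 without KO 1 and 0.158 without WT 2). Both encode tight junction proteins of epithelia.

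**Figure D3:**
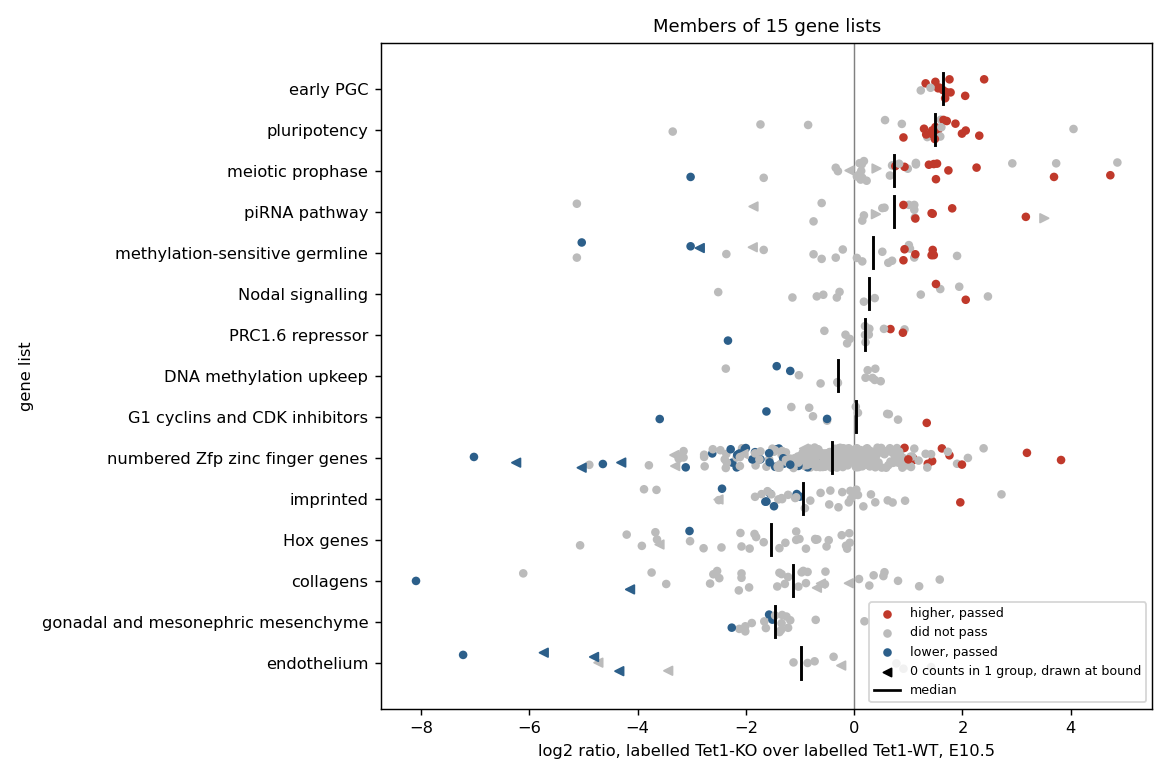
Log2 ratio (libraries labelled Tet1-KO over those labelled Tet1-WT) of each tested member of 15 gene lists, red for genes that passed as higher, blue as lower and grey for the rest; triangles are genes with 0 counts in 1 group, drawn at their bound, and black lines are medians. Early PGC and pluripotency genes lie to the right (medians 1.64 and 1.5), and mesenchyme and Hox genes to the left.

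Genes that promoter methylation is known to hold silent before this stage gave a mixed picture. Of 27 such germline genes tested, 6 rose (22.2%, beside 4.1% of all genes) and 3 fell (11.1%, beside 4.7%). The list's median log2 difference was 0.15 (0.34 with genes at 0 set to their bound). Without WT 1 the number that rose was 3, and without KO 2 the number that fell was 1. Rnf17, a tudor protein of the germ granule, had 102 and 75.2 CPM under the Tet1-KO label, against 40.9 and 40.1 CPM under Tet1-WT (log2 1.13, SE 0.20, adjusted p = 0.00389). Sycp3, a protein of the synaptonemal complex, was low and still separated, at 6.65 and 5.64 CPM under the Tet1-KO label, against 2.32 and 2.11 CPM under Tet1-WT (log2 1.47, SE 0.29, adjusted p = 0.00717, but adjusted p = 0.063 without WT 2). Hormad1, a meiotic chromosome axis protein, went the other way, at 1.44 and 0.0548 CPM under the Tet1-KO label, against 4.92 and 6.38 CPM under Tet1-WT (log2 -3.02, SE 0.60, adjusted p = 0.00754). The other falls were at very low levels. Taf7l, a germ cell TFIID subunit, had 0 and 0 CPM under the Tet1-KO label, against 0.452 and 2.21 CPM under Tet1-WT (at least 7.21-fold lower, adjusted p = 0.0171, but adjusted p = 0.0584 without KO 1, 0.0572 without KO 2 and 0.14 without WT 2). Brdt, a testis bromodomain protein, had 0.0685 and 0 CPM under the Tet1-KO label, against 2.43 and 0.0540 CPM under Tet1-WT (log2 -5.03, SE 1.39, adjusted p = 0.0371, but adjusted p = 0.0855 without KO 1, 0.145 without KO 2 and 0.925 without WT 1). Brdt overlapped between the groups, since replicate 2 labelled Tet1-WT also held almost none.

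The best known genes of this class did not pass. Dazl, an RNA-binding protein that licenses germ cell fate, had 14.3 and 21.9 CPM under the Tet1-KO label, against 4.58 and 18.9 CPM under Tet1-WT (log2 0.63, SE 0.43, adjusted p = 0.384). Ddx4, the germ cell RNA helicase, had 61.4 and 54.7 CPM under the Tet1-KO label, against 11.6 and 42.1 CPM under Tet1-WT (log2 1.11, SE 0.35, adjusted p = 0.0637). Mael, a factor of transposon silencing, had 3.15 and 0 CPM under the Tet1-KO label, against 3.16 and 1.84 CPM under Tet1-WT (log2 -0.75, SE 0.85, adjusted p = 0.631). The 2 libraries labelled Tet1-WT differed about 4-fold from each other in Dazl and Ddx4, with replicate 1 the low one, and without WT 2 both genes passed as higher (adjusted p = 0.0143 for Dazl and 0.000217 for Ddx4). Without KO 1 Mael passed as lower (adjusted p = 0.016). The same replicate gap held for Stk31, a germ cell kinase gene, and for Mov10l1, a helicase of piRNA production. Stk31 had 21.7 and 34.6 CPM under the Tet1-KO label, against 1.02 and 14.1 CPM under Tet1-WT (log2 1.90, SE 0.59, adjusted p = 0.0591). Mov10l1 had 7.20 and 10.6 CPM under the Tet1-KO label, against 0.0565 and 12.3 CPM under Tet1-WT (log2 0.52, SE 0.80, adjusted p = 0.743). Without WT 2 both passed as higher (adjusted p = 0.000151 for Stk31 and 0.001 for Mov10l1).

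Promoter windows of the early PGC and methylation-sensitive genes with the smallest p in each direction, where the RefSeq table holds one, are shown because cytosine methylation in mammals falls mostly on CpG pairs. Each runs from 250 bases before to 50 bases after a RefSeq start on GRCm38.p6, 5′ to 3′, with capitals at every CpG and at every E-box (CACGTG) or E2F motif (TTCCCGC or its reverse complement GCGGGAA). Both strands were searched, and each motif holds a CpG of its own. Ifitm1, Alpl and Nanos3 rose, and Hormad1, Taf7l and Brdt fell. The Ifitm1 window is chr7:140967826-140968125 on the plus strand, the Alpl window chr4:137796335-137796634 on the minus strand and the Nanos3 window chr8:84176503-84176802 on the minus strand. The Hormad1 window is chr3:95559427-95559726 on the plus strand, the Taf7l window chrX:134476441-134476740 on the minus strand and the Brdt window chr5:107330944-107331243 on the plus strand.
Ifitm1: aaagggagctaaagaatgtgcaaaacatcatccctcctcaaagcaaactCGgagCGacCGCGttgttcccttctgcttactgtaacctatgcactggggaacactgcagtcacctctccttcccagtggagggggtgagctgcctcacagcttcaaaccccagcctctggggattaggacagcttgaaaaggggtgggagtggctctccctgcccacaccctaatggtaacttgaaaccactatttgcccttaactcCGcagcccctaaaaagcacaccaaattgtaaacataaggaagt
Alpl: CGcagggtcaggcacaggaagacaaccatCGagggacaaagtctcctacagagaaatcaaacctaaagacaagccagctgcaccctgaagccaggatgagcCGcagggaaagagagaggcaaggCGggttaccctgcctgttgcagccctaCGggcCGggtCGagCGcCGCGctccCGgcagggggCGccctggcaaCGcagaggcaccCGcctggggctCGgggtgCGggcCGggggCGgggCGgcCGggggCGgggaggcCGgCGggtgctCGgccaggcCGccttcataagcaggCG
Nanos3: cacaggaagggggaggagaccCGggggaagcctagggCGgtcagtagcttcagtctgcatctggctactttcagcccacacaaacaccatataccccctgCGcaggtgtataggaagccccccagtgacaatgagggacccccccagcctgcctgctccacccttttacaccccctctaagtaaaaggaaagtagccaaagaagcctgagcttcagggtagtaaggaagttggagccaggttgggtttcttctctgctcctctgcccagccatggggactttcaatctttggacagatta
Hormad1: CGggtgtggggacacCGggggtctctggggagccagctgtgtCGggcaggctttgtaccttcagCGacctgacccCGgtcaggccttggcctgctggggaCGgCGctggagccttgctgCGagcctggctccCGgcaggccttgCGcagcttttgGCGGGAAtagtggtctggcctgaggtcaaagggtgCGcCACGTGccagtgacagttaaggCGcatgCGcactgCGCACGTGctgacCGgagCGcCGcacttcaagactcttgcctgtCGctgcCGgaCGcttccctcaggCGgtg
Taf7l: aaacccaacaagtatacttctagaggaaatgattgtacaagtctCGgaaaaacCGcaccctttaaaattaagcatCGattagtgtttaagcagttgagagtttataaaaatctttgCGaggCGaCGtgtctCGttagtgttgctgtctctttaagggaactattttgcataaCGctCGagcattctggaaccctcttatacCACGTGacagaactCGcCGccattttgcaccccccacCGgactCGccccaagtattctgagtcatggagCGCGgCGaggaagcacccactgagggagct
Brdt: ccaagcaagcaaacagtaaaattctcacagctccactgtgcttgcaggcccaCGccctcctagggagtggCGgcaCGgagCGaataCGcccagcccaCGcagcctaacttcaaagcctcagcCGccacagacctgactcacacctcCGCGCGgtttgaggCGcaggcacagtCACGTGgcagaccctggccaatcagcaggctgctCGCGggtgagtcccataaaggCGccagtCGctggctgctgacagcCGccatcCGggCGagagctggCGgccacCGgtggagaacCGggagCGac

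The 3 windows of genes that rose held 5, 26 and 3 CpG pairs in that order, and the 3 of genes that fell held 24, 17 and 23. Hormad1 carried 2 E-boxes and 1 E2F motif, Taf7l 1 E-box and Brdt 1 E-box, and the windows of Ifitm1, Alpl and Nanos3 carried neither motif. The 3 that rose all belong to the early PGC list and the 3 that fell to the methylation-sensitive list, so direction and list are the same split here. Across the 7 early PGC genes with a window the median was 10 CpG pairs and none had either motif. Across the 23 methylation-sensitive genes with a window the median was 20 CpG pairs and 56.5% had an E-box, against a median of 19 and 9.78% for the 12251 tested genes with a window. The E2F motif was in 21.7% of the 23 windows, against 8.1% of the tested genes. Over all 27025 windows 7.24% held the E-box and 4.66% the E2F motif. By direction, the genes that passed had a median of 21 CpG pairs and 12.6% with an E-box for those that rose, and 20 CpG pairs and 10.8% for those that fell. Letters in a window do not show methylation or binding, neither of which was measured here.

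Meiotic prophase genes were expressed at low to moderate levels. Of 35 tested, 10 passed as higher (28.6%, beside 4.1% of all genes) and 1, Hormad1, as lower (2.86%, beside 4.7%). The list's median log2 difference was 0.76 (0.73 with genes at 0 set to their bound). The number that rose was 5 without WT 1 and 5 without WT 2, and the number that fell 5 without KO 1. The early PGC sums given above moved the same way, and their part in these rises was not tested. Among the meiotic cohesin subunits Stag3 and Smc1b rose. Stag3 had 67.6 and 59.7 CPM under the Tet1-KO label, against 19.6 and 24.4 CPM under Tet1-WT (log2 1.53, SE 0.20, adjusted p = 0.00109). Smc1b had 34.6 and 23.7 CPM under the Tet1-KO label, against 5.71 and 11.7 CPM under Tet1-WT (log2 1.74, SE 0.27, adjusted p = 0.00186). Hormad2, the partner of Hormad1 on the chromosome axis, had 14.7 and 14.7 CPM under the Tet1-KO label, against 3.95 and 6.32 CPM under Tet1-WT (log2 1.51, SE 0.22, adjusted p = 0.00128), so the 2 paralogs moved in opposite directions. Syce2, of the central element, had 328 and 190.4 CPM under the Tet1-KO label, against 96.3 and 102 CPM under Tet1-WT (log2 1.38, SE 0.29, adjusted p = 0.00899, but adjusted p = 0.0676 without KO 1, 0.0568 without WT 1 and 0.0587 without WT 2). Stra8, the gene that marks entry into meiosis, had 0.0685 and 0 CPM under the Tet1-KO label, against 0 and 0.0540 CPM under Tet1-WT.

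Several meiotic genes were present in 1 library labelled Tet1-KO and nearly absent in the other. Rec8, the meiotic kleisin, had 27.4 and 0 CPM under the Tet1-KO label, against 11.2 and 5.94 CPM under Tet1-WT (log2 0.66, SE 0.97, adjusted p = 0.733). Tex11 had 12.9 and 0.0548 CPM under the Tet1-KO label, against 3.90 and 8.21 CPM under Tet1-WT (log2 0.05, SE 0.82, adjusted p = 1.0). Spo11, which makes the meiotic breaks, had 17.2 and 0.219 CPM under the Tet1-KO label, against 1.30 and 0 CPM under Tet1-WT (log2 3.73, SE 1.33, adjusted p = 0.0932). In all 3, replicate 1 labelled Tet1-KO was the high library and replicate 2 held next to none. The call turned with the library kept: without KO 1 Rec8 (adjusted p = 0.000117) and Tex11 (0.000617) passed as lower, and without KO 2 Rec8 (0.00803) and Spo11 (0.00664) passed as higher. They were named after their values were seen, for this gap.

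In the piRNA pathway, which silences transposons in germ cells, 6 of 24 tested genes rose (25%, beside 4.1% of all genes) and none fell. The list's median log2 difference was 0.74. Tdrd7, a tudor protein of the germ granule, was low and rose in both replicates, at 4.66 and 2.96 CPM under the Tet1-KO label, against 0.678 and 0.162 CPM under Tet1-WT (log2 3.17, SE 0.47, adjusted p = 0.00158). Piwil2, a PIWI protein, had 25.4 and 32.1 CPM under the Tet1-KO label, against 15.5 and 5.83 CPM under Tet1-WT (log2 1.43, SE 0.38, adjusted p = 0.0301, but adjusted p = 0.0891 without KO 2 and 0.204 without WT 2). Fkbp6, a co-chaperone of the pathway, had 78.1 and 58.0 CPM under the Tet1-KO label, against 27.4 and 44.9 CPM under Tet1-WT (log2 0.91, SE 0.23, adjusted p = 0.023, but adjusted p = 0.12 without KO 1 and 0.184 without WT 1). Morc1, needed for transposon silencing in mouse male germ cells, had 184 and 80.7 CPM under the Tet1-KO label, against 56.2 and 40.8 CPM under Tet1-WT (log2 1.45, SE 0.40, adjusted p = 0.038, but adjusted p = 0.291 without KO 1, 0.0835 without WT 1 and 0.22 without WT 2). Of the oocyte genes none of 7 tested passed, and their sum stayed at or under 5.1 CPM in each library.

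Among enzymes that handle cytosine methylation, Uhrf1, which brings DNMT1 to replicating DNA, fell, with 67.7 and 164 CPM under the Tet1-KO label, against 284 and 339.7 CPM under Tet1-WT (log2 -1.43, SE 0.29, adjusted p = 0.00851, but adjusted p = 0.062 without WT 2). Dnmt1 itself had 349.7 and 393 CPM under the Tet1-KO label, against 348 and 278 CPM under Tet1-WT (log2 0.25, SE 0.27, adjusted p = 0.612). Dnmt3a had 82.3 and 179.8 CPM under the Tet1-KO label, against 266 and 268 CPM under Tet1-WT (log2 -1.02, SE 0.37, adjusted p = 0.101). Dnmt3b had 2.95 and 13.3 CPM under the Tet1-KO label, against 11.1 and 8.97 CPM under Tet1-WT (log2 -0.30, SE 0.70, adjusted p = 0.858). Dnmt3l had no count in any of the 4. Mbd1, a reader of methylated CpG, fell as well, at 23.4 and 20.3 CPM under the Tet1-KO label, against 59.6 and 39.7 CPM under Tet1-WT (log2 -1.18, SE 0.27, adjusted p = 0.0145, but adjusted p = 0.102 without WT 1). These were the 2 of 14 methylation genes that passed, and Dnmt3a passed as well without KO 2 (adjusted p = 0.0168). Uhrf1 and Mbd1 were 14.3% of their list, beside 4.7% of all genes as lower. Of 19 TET and base excision repair genes 3 rose (15.8%, beside 4.1% of all genes) and none fell. That list had no common direction, with 9 positive and 10 negative log2 ratios and a median of -0.18. Ung, the uracil glycosylase, had 219 and 141 CPM under the Tet1-KO label, against 63.4 and 46.4 CPM under Tet1-WT (log2 1.72, SE 0.32, adjusted p = 0.00533, but adjusted p = 0.0602 without WT 2). Parp1, a sensor of strand breaks, had 682 and 735 CPM under the Tet1-KO label, against 407 and 342 CPM under Tet1-WT (log2 0.92, SE 0.25, adjusted p = 0.0336, but adjusted p = 0.0553 without KO 1, 0.0856 without KO 2, 0.081 without WT 1 and 0.19 without WT 2). Gadd45a, a stress-induced gene, had 39.4 and 24.6 CPM under the Tet1-KO label, against 14.3 and 12.4 CPM under Tet1-WT (log2 1.26, SE 0.37, adjusted p = 0.0429, but adjusted p = 0.225 without KO 1, 0.133 without WT 1 and 0.225 without WT 2).

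The PRC1.6 complex represses germline genes in other cells through MGA and E2F6. Its subunits moved apart. Mga had 207 and 218 CPM under the Tet1-KO label, against 138 and 129 CPM under Tet1-WT (log2 0.67, SE 0.16, adjusted p = 0.0183, but adjusted p = 0.0543 without KO 2, 0.0654 without WT 1 and 0.124 without WT 2). L3mbtl2 had 109 and 138 CPM under the Tet1-KO label, against 67.4 and 64.5 CPM under Tet1-WT (log2 0.90, SE 0.23, adjusted p = 0.0237, but adjusted p = 0.102 without KO 2, 0.0877 without WT 1 and 0.123 without WT 2). Yaf2, a RING1-binding subunit, fell, at 10.01 and 7.40 CPM under the Tet1-KO label, against 47.1 and 40.6 CPM under Tet1-WT (log2 -2.33, SE 0.44, adjusted p = 0.00581). The other 11 of 14 genes tested did not pass, and the list's median was 0.20. Its 2 rises were 14.3% of the list, beside 4.1% of all genes, and its 1 fall was 7.14%, beside 4.7%. Of 11 PRC2 genes only the accessory subunit Phf19 rose, at 154 and 97.3 CPM under the Tet1-KO label, against 43.5 and 31.0 CPM under Tet1-WT (log2 1.75, SE 0.33, adjusted p = 0.00591, but adjusted p = 0.0653 without WT 2). Among H3K9 methyltransferase genes Ehmt1 fell, with 54.0 and 84.8 CPM under the Tet1-KO label, against 152 and 140.2 CPM under Tet1-WT (log2 -1.07, SE 0.20, adjusted p = 0.00573). Setdb2 rose, with 28.1 and 26.0 CPM under the Tet1-KO label, against 9.55 and 13.2 CPM under Tet1-WT (log2 1.25, SE 0.31, adjusted p = 0.0227, but adjusted p = 0.0614 without KO 1, 0.142 without WT 1 and 0.0572 without WT 2). Setdb1, Suv39h1, Suv39h2 and Ehmt2 did not pass, with log2 differences of 0.11, -0.17, 0.59 and 0.13. Of the 6 H3K9 methyltransferase genes 16.7% rose and 16.7% fell, beside 4.1% and 4.7% of all genes. Of the PRC2 genes 9.09% rose.

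Imprinted genes are expressed from 1 parental allele and lose that restriction as PGCs erase methylation. Of 42 tested, 7 fell (16.7%, beside 4.7% of all genes) and 1 rose (2.38%, beside 4.1%), with a median log2 difference of -0.95. In both libraries labelled Tet1-KO 26 were lower, as were 25.1% of all genes. Asb4, an imprinted gene of the Peg10 cluster, had 41.5 and 92.0 CPM under the Tet1-KO label, against 377 and 348 CPM under Tet1-WT (log2 -2.44, SE 0.35, adjusted p = 0.00128). H19, a non-coding RNA, had 189 and 204 CPM under the Tet1-KO label, against 539.8 and 613 CPM under Tet1-WT (log2 -1.55, SE 0.31, adjusted p = 0.00717). Its neighbour Igf2, a growth factor, had 101 and 225 CPM under the Tet1-KO label, against 546 and 471 CPM under Tet1-WT (log2 -1.64, SE 0.41, adjusted p = 0.0226, but adjusted p = 0.127 without KO 1, 0.072 without WT 1 and 0.0669 without WT 2). The labels did not overlap in these 3 genes. Peg3, a zinc finger gene, had 842 and 1352 CPM under the Tet1-KO label, against 2309.9 and 2276 CPM under Tet1-WT (log2 -1.06, SE 0.24, adjusted p = 0.0128, but adjusted p = 0.0907 without KO 1 and 0.0613 without WT 2). Mest had 212 and 464 CPM under the Tet1-KO label, against 923 and 955 CPM under Tet1-WT (log2 -1.48, SE 0.40, adjusted p = 0.0339, but adjusted p = 0.176 without KO 1, 0.079 without WT 1 and 0.118 without WT 2). In Peg3 and Mest the 2 libraries labelled Tet1-WT were close, and replicate 1 was the lower under Tet1-KO. Cdkn1c, a cell cycle inhibitor, had 62.1 and 95.5 CPM under the Tet1-KO label, against 259 and 224 CPM under Tet1-WT (log2 -1.62, SE 0.36, adjusted p = 0.0135, but adjusted p = 0.0835 without KO 1).

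The exception was Phlda2, a regulator of placental growth in the same cluster as Cdkn1c, at 311 and 179.6 CPM under the Tet1-KO label, against 70.5 and 55.3 CPM under Tet1-WT (log2 1.96, SE 0.49, adjusted p = 0.0242, but adjusted p = 0.0982 without KO 1, 0.0796 without WT 1 and 0.154 without WT 2). The number of imprinted genes that fell was 3 without KO 1 or WT 2, 12 without KO 2, and 5 without WT 1. The list summed to 3094 and 4348 CPM under the Tet1-KO label, against 7694 and 7493 CPM under Tet1-WT. Many of these genes, H19, Igf2, Mest and Cdkn1c among them, are known to be abundant in embryonic mesenchyme, whose 19 markers summed to 956 and 1677 CPM under the Tet1-KO label, against 2829 and 3329 CPM under Tet1-WT. That level and the label cannot be told apart.

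**Figure D4:**
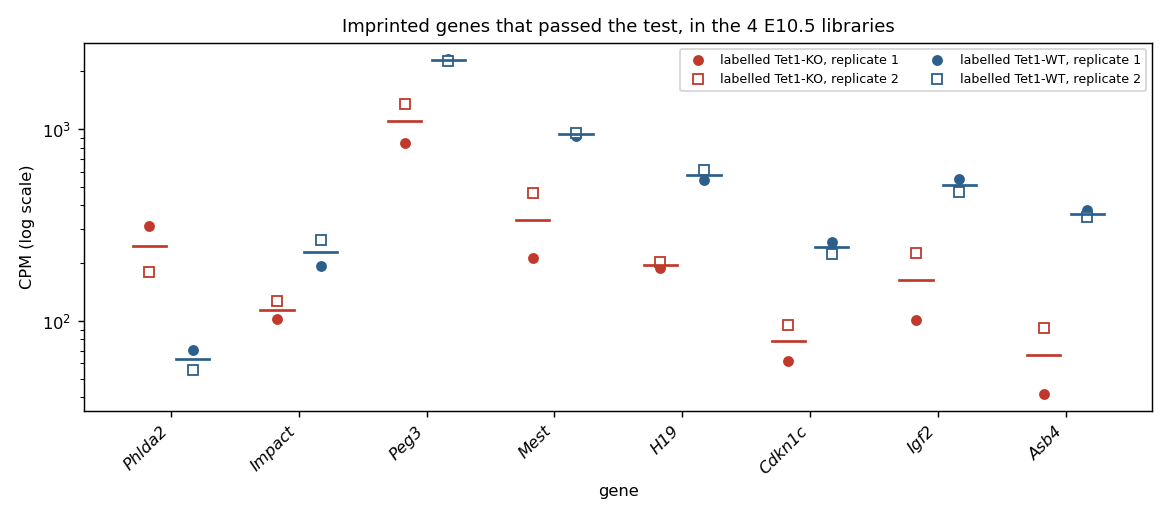
CPM (log axis) of the 8 imprinted genes that passed the test in each E10.5 library, with the libraries labelled Tet1-KO in red left of those labelled Tet1-WT in blue, and bars at group means. Phlda2 is higher and the other 7 lower in both libraries labelled Tet1-KO.

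On the X chromosome, 34 of 607 coding genes rose (5.6%) and 46 fell (7.58%), against 658 (4.57%) and 744 (5.16%) of 14414 autosomal coding genes. Xist, the RNA that coats the inactive X, had 12.1 and 22.9 CPM under the Tet1-KO label, against 70.2 and 75.5 CPM under Tet1-WT (log2 -2.05, SE 0.79, adjusted p = 0.12). The Y-linked genes were present in all 4 libraries, Ddx3y for example at 33.7 and 47.8 CPM under the Tet1-KO label, against 37.6 and 67.1 CPM under Tet1-WT (log2 -0.36, SE 0.33, adjusted p = 0.536). Uty, another, differed more between replicates than between labels, at 12.48 and 56.7 CPM under the Tet1-KO label, against 14.2 and 49.1 CPM under Tet1-WT (log2 0.13, SE 0.58, adjusted p = 0.959). Each library thus held RNA of male cells, and the share of each sex in a pool is not given.

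Genes of migration and adhesion moved both ways. Of the 12 tested 25% rose and 33.3% fell, beside 4.1% and 4.7% of all genes. Epcam, an adhesion molecule of epithelia and PGCs, had 63.2 and 42.4 CPM under the Tet1-KO label, against 22.5 and 16.6 CPM under Tet1-WT (log2 1.43, SE 0.28, adjusted p = 0.00667, but adjusted p = 0.0754 without WT 2). Cdh1, which encodes E-cadherin, had 74.2 and 116 CPM under the Tet1-KO label, against 29.2 and 20.4 CPM under Tet1-WT (log2 1.94, SE 0.49, adjusted p = 0.0242, but adjusted p = 0.0839 without KO 2, 0.0667 without WT 1 and 0.162 without WT 2). Pecam1, an adhesion molecule of PGCs and endothelium, rose too, with 205 and 155 CPM under the Tet1-KO label, against 64.5 and 88.2 CPM under Tet1-WT (log2 1.24, SE 0.35, adjusted p = 0.0383, but adjusted p = 0.139 without KO 1, 0.207 without WT 1 and 0.0898 without WT 2). All 3 were higher in both libraries labelled Tet1-KO. The ligands that somatic cells make to guide and sustain PGCs fell. Kitl, the ligand of KIT, had 38.5 and 32.6 CPM under the Tet1-KO label, against 135 and 117 CPM under Tet1-WT (log2 -1.83, SE 0.41, adjusted p = 0.0144, but adjusted p = 0.0502 without KO 2, 0.0653 without WT 1 and 0.0587 without WT 2). Cxcl12, the ligand of CXCR4, had 31.3 and 58.4 CPM under the Tet1-KO label, against 153 and 198 CPM under Tet1-WT (log2 -1.97, SE 0.38, adjusted p = 0.00665, but adjusted p = 0.0505 without WT 2). The labels did not overlap in either. Itgb1, an integrin subunit gene, fell, with 75.3 and 92.8 CPM under the Tet1-KO label, against 158 and 188 CPM under Tet1-WT (log2 -1.04, SE 0.21, adjusted p = 0.00783, but adjusted p = 0.0531 without KO 1 and 0.0718 without WT 2). Cdh2, which encodes N-cadherin, fell too, with 38.9 and 59.1 CPM under the Tet1-KO label, against 159 and 108 CPM under Tet1-WT (log2 -1.44, SE 0.40, adjusted p = 0.037, but adjusted p = 0.165 without KO 1, 0.167 without WT 1 and 0.0653 without WT 2). In all, 3 of 12 tested genes rose and 4 fell, and without WT 2 none of the 12 passed.

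In Nodal signalling, 2 of 14 tested genes rose (14.3%, beside 4.1% of all genes) and none fell. Foxh1, the DNA-binding partner of SMAD2, had 101 and 90.7 CPM under the Tet1-KO label, against 30.6 and 15.4 CPM under Tet1-WT (log2 2.06, SE 0.35, adjusted p = 0.0031). Gdf3, a ligand of the pathway, had 162 and 106 CPM under the Tet1-KO label, against 51.2 and 42.9 CPM under Tet1-WT (log2 1.51, SE 0.30, adjusted p = 0.00789, but adjusted p = 0.0732 without WT 2). Neither gene overlapped between the labels. In the BMP and WNT list of 23, 2 genes rose (8.7%, beside 4.1% of all genes) and 1 fell (4.35%, beside 4.7%). Wnt3, a ligand, had 6.58 and 5.09 CPM under the Tet1-KO label, against 1.81 and 0.540 CPM under Tet1-WT (log2 2.31, SE 0.54, adjusted p = 0.0172, but adjusted p = 0.0513 without KO 1 and 0.145 without WT 2). Msx2, a homeobox gene downstream of BMP, had 27.3 and 26.0 CPM under the Tet1-KO label, against 10.8 and 5.29 CPM under Tet1-WT (log2 1.73, SE 0.49, adjusted p = 0.0403, but adjusted p = 0.0873 without KO 1, 0.0608 without KO 2 and 0.266 without WT 2). Smad5, a transducer of BMP signals, fell, with 37.1 and 54.1 CPM under the Tet1-KO label, against 69.9 and 108 CPM under Tet1-WT (log2 -0.96, SE 0.25, adjusted p = 0.0311, but adjusted p = 0.169 without KO 1 and 0.278 without WT 2). Without WT 2, none of the 23 passed.

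Of 16 G1 genes 3 fell (18.8%, beside 4.7% of all genes) and 1 rose (6.25%, beside 4.1%). Ccnd1, the cyclin of G1 entry, fell furthest, at 3.98 and 2.08 CPM under the Tet1-KO label, against 36.3 and 36.5 CPM under Tet1-WT (log2 -3.59, SE 0.60, adjusted p = 0.00308), with the groups wide apart. Its kinase partner Cdk4 fell less, at 952 and 805 CPM under the Tet1-KO label, against 1165 and 1316 CPM under Tet1-WT (log2 -0.50, SE 0.14, adjusted p = 0.0399, but adjusted p = 0.144 without KO 2, 0.0572 without WT 1 and 0.241 without WT 2). In Cdk4 too the labels did not overlap. Cdkn1a, which encodes the inhibitor p21, rose, at 15.8 and 13.8 CPM under the Tet1-KO label, against 5.54 and 6.11 CPM under Tet1-WT (log2 1.34, SE 0.29, adjusted p = 0.0124, but adjusted p = 0.0794 without WT 1 and 0.0674 without WT 2). Cdkn1c, described above, was the other that fell. Of 18 mitotic genes only Cenpf passed, as higher (5.56%, beside 4.1% of all genes). Of 19 replication genes only Cdc45 did, as higher (5.26%). The list medians were 0.09 and 0.37. Cenpf, a kinetochore protein, had 434 and 546 CPM under the Tet1-KO label, against 334 and 262 CPM under Tet1-WT (log2 0.72, SE 0.20, adjusted p = 0.0396, but adjusted p = 0.192 without KO 2, 0.0653 without WT 1 and 0.263 without WT 2). Cdc45, a part of the replicative helicase, had 125 and 116 CPM under the Tet1-KO label, against 66.7 and 79.4 CPM under Tet1-WT (log2 0.73, SE 0.20, adjusted p = 0.0338, but adjusted p = 0.0982 without KO 1, 0.0543 without KO 2, 0.198 without WT 1 and 0.0806 without WT 2).

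Of 23 apoptosis and p53 genes 2 rose (8.7%, beside 4.1% of all genes) and 1 fell (4.35%, beside 4.7%). Bid, which links death receptors to mitochondria, had 137 and 73.4 CPM under the Tet1-KO label, against 33.1 and 27.5 CPM under Tet1-WT (log2 1.79, SE 0.26, adjusted p = 0.00134). Bax, which makes pores in mitochondria, had 233 and 159 CPM under the Tet1-KO label, against 107 and 123 CPM under Tet1-WT (log2 0.77, SE 0.20, adjusted p = 0.0269, but adjusted p = 0.194 without KO 1, 0.158 without WT 1 and 0.0811 without WT 2). The labels did not overlap in Bid or Bax. Among 20 immediate early and heat shock genes 2 fell (10%, beside 4.7% of all genes) and 2 rose (10%, beside 4.1%). Nr4a1, an orphan nuclear receptor, fell, with 0 and 0.110 CPM under the Tet1-KO label, against 4.24 and 2.97 CPM under Tet1-WT (log2 -5.76, SE 1.14, adjusted p = 0.00735). Egr1, a zinc finger factor, fell, with 1.58 and 3.999 CPM under the Tet1-KO label, against 6.78 and 35.2 CPM under Tet1-WT (log2 -2.90, SE 0.77, adjusted p = 0.0316, but adjusted p = 0.136 without KO 1 and 0.407 without WT 2). Ier3, an early response gene, rose, with 52.7 and 51.5 CPM under the Tet1-KO label, against 11.6 and 12.4 CPM under Tet1-WT (log2 2.12, SE 0.60, adjusted p = 0.039, but adjusted p = 0.0783 without KO 1, 0.0613 without KO 2, 0.154 without WT 1 and 0.17 without WT 2). So did Hsp90aa1, a chaperone, with 2992 and 2442 CPM under the Tet1-KO label, against 1937 and 1826 CPM under Tet1-WT (log2 0.53, SE 0.14, adjusted p = 0.0266, but adjusted p = 0.169 without KO 1, 0.1 without WT 1 and 0.174 without WT 2). The Egr1 level labelled Tet1-WT came mostly from replicate 2.

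In glycolysis the glucose transporter gene Slc2a3 rose, with 809 and 782 CPM under the Tet1-KO label, against 257 and 146 CPM under Tet1-WT (log2 1.98, SE 0.35, adjusted p = 0.00374). Of 24 tested genes 4.17% rose and 4.17% fell, beside 4.1% and 4.7% of all genes. The other that passed was Eno3, the muscle enolase, as lower. It had 56.8 and 109.7 CPM under the Tet1-KO label, against 182 and 219 CPM under Tet1-WT (log2 -1.26, SE 0.35, adjusted p = 0.037, but adjusted p = 0.205 without KO 1, 0.0723 without WT 1 and 0.197 without WT 2). None of 13 serine and one-carbon genes passed. Of 15 cholesterol synthesis genes 2 fell (13.3%, beside 4.7% of all genes), the sterol desaturase Sc5d and the demethylase Cyp51. Sc5d had 50.6 and 63.8 CPM under the Tet1-KO label, against 85.3 and 121 CPM under Tet1-WT (log2 -0.85, SE 0.23, adjusted p = 0.037, but adjusted p = 0.17 without KO 1 and 0.294 without WT 2). Cyp51 had 95.3 and 126 CPM under the Tet1-KO label, against 179 and 222 CPM under Tet1-WT (log2 -0.86, SE 0.25, adjusted p = 0.0445, but adjusted p = 0.209 without KO 1, 0.0606 without WT 1 and 0.248 without WT 2).

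Cytosolic ribosomal protein genes had a median of 0.33, and 4 of 84 rose (4.76%, beside 4.1% of all genes) and none fell. Their sum was 99532 and 73672 CPM under the Tet1-KO label, against 69140.0 and 69194 CPM under Tet1-WT, so replicate 1 labelled Tet1-KO stood apart. Without KO 2 the number that rose was 16, and without KO 1 or WT 1 it was 1. Of 81 nuclear oxidative phosphorylation genes 4 rose, against 16 without KO 2 and 1 without KO 1 or WT 1. Cox7a1, a cytochrome oxidase subunit, had 21.1 and 10.1 CPM under the Tet1-KO label, against 4.07 and 4.86 CPM under Tet1-WT (log2 1.80, SE 0.29, adjusted p = 0.00219). The 4 nuclear genes that rose were 4.94% of their list, beside 4.1% of all genes. None of the 12 mitochondrial genome genes passed.

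Numbered Zfp genes, most of which encode zinc finger proteins that bind DNA, and many of which recruit repressors to transposons, gave 30 falls (8.88%) and 11 rises (3.25%) among 338 tested, beside 4.7% and 4.1% over all genes. The median was -0.38, and 127 were lower in both libraries labelled Tet1-KO, as 25.1% of all genes were. Zfp128 had 0 and 0 CPM under the Tet1-KO label, against 12.99 and 15.0 CPM under Tet1-WT (at least 75.6-fold lower, adjusted p = 0.000512). Zfp760 had 9.53 and 6.90 CPM under the Tet1-KO label, against 48.4 and 52.7 CPM under Tet1-WT (log2 -2.62, SE 0.36, adjusted p = 0.00126). Zfp619 had 0 and 0.110 CPM under the Tet1-KO label, against 8.59 and 8.70 CPM under Tet1-WT (log2 -7.02, SE 1.00, adjusted p = 0.00126). In these 3 genes the 2 libraries of each label were close to each other and far from the other label. Zfp68 fell less, at 20.7 and 19.9 CPM under the Tet1-KO label, against 51.8 and 82.8 CPM under Tet1-WT (log2 -1.73, SE 0.26, adjusted p = 0.00157).

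Some members of the family rose as sharply. Zfp345 had 17.96 and 18.1 CPM under the Tet1-KO label, against 2.15 and 1.78 CPM under Tet1-WT (log2 3.19, SE 0.46, adjusted p = 0.00134), close to equal within each label. Zfp42, also known as Rex1 and counted above among pluripotency genes, had 162 and 113 CPM under the Tet1-KO label, against 52.7 and 48.5 CPM under Tet1-WT (log2 1.44, SE 0.23, adjusted p = 0.00219). Zfp819, another zinc finger gene, had 11.2 and 18.2 CPM under the Tet1-KO label, against 0 and 2.05 CPM under Tet1-WT (log2 3.82, SE 0.96, adjusted p = 0.0239, but adjusted p = 0.0542 without WT 1). The number of falls was 9 without WT 2 and 49 without KO 2, and the number of rises 6 and 12. Without WT 1 there were 26 falls and 4 rises. Many such genes are near-identical copies of one another, and how reads that fit several places were counted is not given in the sources used here.

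The largest rises outside these lists were in genes nearly absent from the libraries labelled Tet1-WT. Il17rb, a receptor of interleukin 17 family ligands, had 9.05 and 9.04 CPM under the Tet1-KO label, against 0 and 0 CPM under Tet1-WT (at least 54.6-fold higher, adjusted p = 0.0114, but adjusted p = 0.0623 without WT 1 and 0.084 without WT 2). Slain1, a microtubule-binding protein, had 6.99 and 7.83 CPM under the Tet1-KO label, against 0.452 and 0.486 CPM under Tet1-WT (log2 3.96, SE 0.57, adjusted p = 0.00128). Pla2g7, a secreted phospholipase, had 19.2 and 15.9 CPM under the Tet1-KO label, against 1.75 and 1.73 CPM under Tet1-WT (log2 3.33, SE 0.46, adjusted p = 0.00126). Glis3, a zinc finger transcription factor, had 8.43 and 3.29 CPM under the Tet1-KO label, against 0.734 and 0.162 CPM under Tet1-WT (log2 3.69, SE 0.62, adjusted p = 0.00302). Map3k15, a kinase, had 11.4 and 5.70 CPM under the Tet1-KO label, against 1.24 and 0 CPM under Tet1-WT (log2 3.78, SE 0.86, adjusted p = 0.0147). The replicates of a label were close for Slain1 and Pla2g7 and were further apart within the libraries labelled Tet1-KO for Glis3 and Map3k15, replicate 1 being the higher. Lpin3, a phosphatidate phosphatase, had 17.8 and 7.62 CPM under the Tet1-KO label, against 1.24 and 1.19 CPM under Tet1-WT (log2 3.38, SE 0.68, adjusted p = 0.0083, but adjusted p = 0.0696 without WT 2).

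The largest falls had no count in either library labelled Tet1-KO. Mc2r, the receptor for adrenocorticotropic hormone, had 0 and 0 CPM under the Tet1-KO label, against 15.2 and 15.0 CPM under Tet1-WT (at least 81.5-fold lower, adjusted p = 0.0184, but adjusted p = 0.0543 without KO 1 and 0.0581 without WT 2). Csf1, the macrophage growth factor made by stromal cells, had 0 and 0 CPM under the Tet1-KO label, against 6.95 and 8.81 CPM under Tet1-WT (at least 42.6-fold lower, adjusted p = 0.0135). Creb5, a transcription factor, had 0 and 0 CPM under the Tet1-KO label, against 2.03 and 14.6 CPM under Tet1-WT (at least 44.9-fold lower, adjusted p = 0.007), with most of its Tet1-WT level in replicate 2. Cd34 had most of it in replicate 1. Cd34, a surface marker of blood and endothelial progenitors, had 0 and 0 CPM under the Tet1-KO label, against 21.8 and 3.40 CPM under Tet1-WT (at least 68.0-fold lower, adjusted p = 0.0387, but adjusted p = 0.106 without KO 1, 0.0929 without KO 2, 0.116 without WT 1 and 0.0622 without WT 2). Socs3, a feedback inhibitor of cytokine signalling, had 0 and 0 CPM under the Tet1-KO label, against 11.6 and 6.64 CPM under Tet1-WT (at least 49.4-fold lower, adjusted p = 0.0327, but adjusted p = 0.0972 without KO 1, 0.0829 without KO 2, 0.0688 without WT 1 and 0.0694 without WT 2). Such bounds cover counting error only.

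Measured as a change in CPM, the genes that moved most were abundant in every library. Ptma, which encodes prothymosin, had 4277 and 4499 CPM under the Tet1-KO label, against 5750.0 and 6871 CPM under Tet1-WT (log2 -0.52, SE 0.15, adjusted p = 0.0402, but adjusted p = 0.14 without KO 1, 0.0577 without KO 2 and 0.283 without WT 2). Hmgn2, a nucleosome-binding protein, had 746 and 707 CPM under the Tet1-KO label, against 1359.7 and 1766 CPM under Tet1-WT (log2 -1.10, SE 0.22, adjusted p = 0.00713, but adjusted p = 0.0718 without WT 2). Hmgb1, a chromatin protein, had 2976 and 2732 CPM under the Tet1-KO label, against 3441 and 4513 CPM under Tet1-WT (log2 -0.48, SE 0.14, adjusted p = 0.0465, but adjusted p = 0.0871 without KO 1, 0.116 without KO 2 and 0.41 without WT 2). These 3 genes were lower in both libraries labelled Tet1-KO. Nmt2, an N-myristoyltransferase, had 1365 and 1091 CPM under the Tet1-KO label, against 441 and 470.2 CPM under Tet1-WT (log2 1.43, SE 0.27, adjusted p = 0.00581). Mdk, the growth factor midkine, had 463 and 573 CPM under the Tet1-KO label, against 1104 and 1475 CPM under Tet1-WT (log2 -1.32, SE 0.29, adjusted p = 0.0129, but adjusted p = 0.0701 without KO 1 and 0.102 without WT 2). Rpl4, a ribosomal protein gene, had 3819 and 3454 CPM under the Tet1-KO label, against 2277 and 2526 CPM under Tet1-WT (log2 0.60, SE 0.12, adjusted p = 0.00781, but adjusted p = 0.0837 without WT 1). Dppa3, Peg3 and Hsp90aa1, described above, were in this set too.

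The same contrast at E12.5, with females and males fitted apart, was set beside these values. A test of the difference, the E10.5 log2 ratio minus the mean of the 2 E12.5 ratios, passed for 104 genes (0.592%), 41 more positive (0.233%) and 63 more negative (0.359%) at E10.5. Early PGC genes had medians of 0.5 in E12.5 females and 0.68 in E12.5 males, against 1.64 at E10.5. Of the 13, Dppa3 alone passed the test of the difference (difference 1.51, SE 0.31, adjusted p = 0.0454). At E12.5 none of the 13 passed in either sex. Dppa3 had 2957 to 3424 CPM in the 4 E12.5 libraries under Tet1-KO, against 2263 to 3543 CPM in the 4 under Tet1-WT.

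Meiotic genes carried 4 of the 104. Stag3 had 161 to 295 CPM in the 4 E12.5 libraries under Tet1-KO, against 162 to 238 CPM in the 4 under Tet1-WT (difference 1.57, SE 0.24, adjusted p = 0.0097). Smc1b had 199.6 to 315 CPM in the 4 E12.5 libraries under Tet1-KO, against 170.1 to 461 CPM in the 4 under Tet1-WT (difference 1.99, SE 0.32, adjusted p = 0.0121). The others were Sycp3 (difference 2.09, SE 0.33, adjusted p = 0.0121) and Hormad2 (difference 1.52, SE 0.26, adjusted p = 0.0178). Sycp3 had 27.1 to 39.8 CPM in the 4 E12.5 libraries under Tet1-KO, against 37.9 to 79.7 CPM in the 4 under Tet1-WT. Hormad2 had 19.1 to 37.6 CPM in the 4 E12.5 libraries under Tet1-KO, against 15.2 to 55.6 CPM in the 4 under Tet1-WT. Within each sex at E12.5, Sycp3 was lower in both libraries under Tet1-KO than in either under Tet1-WT. Tdrd7, of the piRNA list, had 8.27 to 11.3 CPM in the 4 E12.5 libraries under Tet1-KO, against 11.4 to 14.7 CPM in the 4 under Tet1-WT (difference 3.60, SE 0.54, adjusted p = 0.0097). Epcam had 45.6 to 69.0 CPM in the 4 E12.5 libraries under Tet1-KO, against 57.7 to 70.5 CPM in the 4 under Tet1-WT (difference 1.64, SE 0.33, adjusted p = 0.0404). In these genes the E12.5 libraries of both labels were above both E10.5 libraries labelled Tet1-WT.

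Among the largest differences, Pla2g7 had 7.74 to 15.6 CPM in the 4 E12.5 libraries under Tet1-KO, against 14.2 to 18.8 CPM in the 4 under Tet1-WT (difference 3.91, SE 0.54, adjusted p = 0.00655). Slain1 had 2.10 to 6.95 CPM in the 4 E12.5 libraries under Tet1-KO, against 2.26 to 6.48 CPM in the 4 under Tet1-WT (difference 3.59, SE 0.65, adjusted p = 0.0218). Zfp345 had 16.5 to 23.6 CPM in the 4 E12.5 libraries under Tet1-KO, against 9.20 to 20.8 CPM in the 4 under Tet1-WT (difference 2.90, SE 0.53, adjusted p = 0.0248). Glis3 had 10.3 to 15.2 CPM in the 4 E12.5 libraries under Tet1-KO, against 7.15 to 13.2 CPM in the 4 under Tet1-WT (difference 3.50, SE 0.70, adjusted p = 0.0372). In these 4 genes the low values were those of the E10.5 libraries labelled Tet1-WT, and the E12.5 libraries of both labels were higher. Other genes had 0 counts in the E10.5 libraries labelled Tet1-KO. Zfp128 had 1.601 to 4.65 CPM in the 4 E12.5 libraries under Tet1-KO, against 5.15 to 9.60 CPM in the 4 under Tet1-WT (adjusted p of the difference 0.0059). Ptprj, a receptor phosphatase, had 0.757 to 5.78 CPM in the 4 E12.5 libraries under Tet1-KO, against 3.13 to 8.31 CPM in the 4 under Tet1-WT (adjusted p 0.0097). Spp1, a secreted phosphoprotein, had 3.45 to 7.32 CPM in the 4 E12.5 libraries under Tet1-KO, against 3.21 to 10.6 CPM in the 4 under Tet1-WT (adjusted p 0.0128).

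Of the 19 mesenchyme genes, 18 did not pass the test of the difference between stages. The list's median was -3.75 in females and -2.70 in males, against -1.46 at E10.5, and 10 and 7 of the 19 fell at E12.5. The share of all genes that fell at E12.5 is not given here. Counts of falls at E10.5 and E12.5 are therefore not comparable, for this list or for the imprinted genes below. The mesenchyme sums at E12.5 were 356.1 to 642.5 CPM under the Tet1-KO label, against 1329.9 to 2775.5 CPM under Tet1-WT. Col1a1, the main collagen of mesenchyme, had 23.6 and 65.2 CPM under the Tet1-KO label, against 127 and 98.4 CPM under Tet1-WT at E10.5 (log2 -1.34, SE 0.45, adjusted p = 0.0772, but adjusted p = 0.00905 without KO 2). At E12.5 it had 3.60 to 27.9 CPM in the 4 E12.5 libraries under Tet1-KO, against 110.2 to 232 CPM in the 4 under Tet1-WT (difference 2.69, SE 0.56, adjusted p = 0.0454). Imprinted genes had nearly the same median at both stages, -0.83 in E12.5 females and -0.89 in males, against -0.95 at E10.5, with 11 and 10 of 42 falling at E12.5 and no member past the test of the difference.

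**Figure D5:**
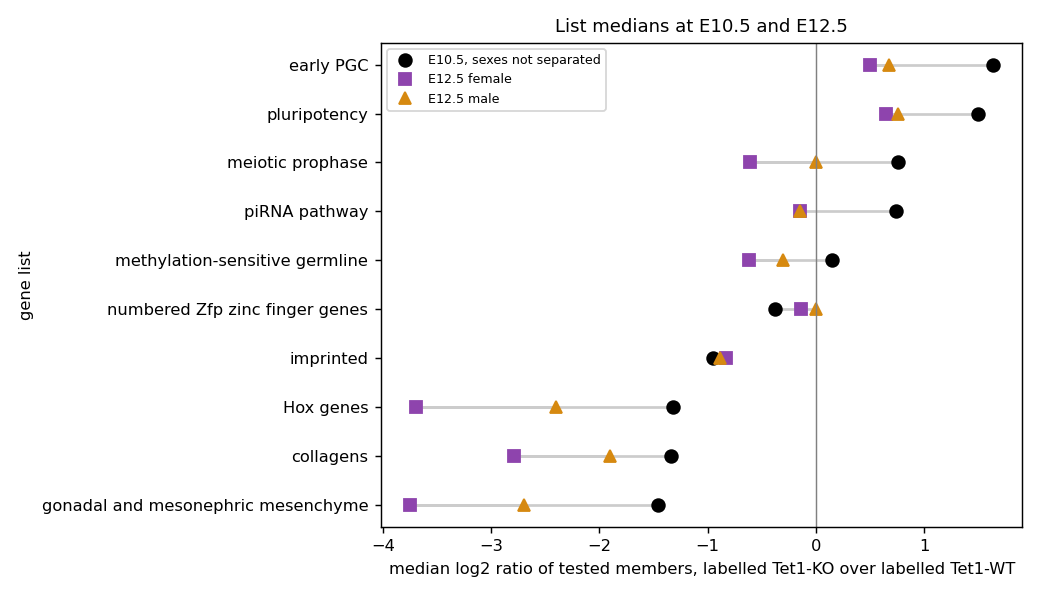
Median log2 ratio (libraries labelled Tet1-KO over those labelled Tet1-WT) of the tested members of 10 gene lists at E10.5 (black circles), in E12.5 females (purple squares) and in E12.5 males (orange triangles). Early PGC genes are furthest right at E10.5 (1.64), and mesenchyme genes furthest left in E12.5 females (-3.75).

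A second set of wild-type PGCs at E10.5, from MF1 females mated with GOF18ΔPE-EGFP males, gives a level beside these values, without a test, since it came from another cross, another RNA kit and 600 to 1000 cells. Its 2 libraries are scaled to their own totals. The early PGC sum was 8407 and 5416 CPM under the Tet1-KO label, 2516 and 1953 CPM under Tet1-WT, and 8651 and 9595 CPM in the MF1 libraries. The mesenchyme sum there was 678.6 and 324.3 CPM, below all 4 libraries of the Tet1 cross. For both sums the libraries labelled Tet1-KO lay nearer to the MF1 wild type than those labelled Tet1-WT did. Stag3 had 97.0 and 52.2 CPM in the MF1 libraries, Sox2 56.3 and 67.4 CPM, H19 34.2 and 55.9 CPM and Ccnd1 1.04 and 6.22 CPM. Those levels lay nearer to the libraries labelled Tet1-KO. Other named genes lay nearer to Tet1-WT: Hormad1 had 10.7 and 14.7 CPM in the MF1 libraries, Zfp619 9.90 and 7.56 CPM and Cldn6 0 and 1.64 CPM. How many genes lay nearer to each label was not counted. Tet1 had 276 and 104 CPM in the MF1 libraries, against 44.5 and 102.0 CPM under the Tet1-KO label.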

How the data were processed

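Whole-transcriptome libraries of sorted PGCs were made with an ultra-low-input cDNA kit, with 15 cycles of cDNA and 15 of library amplification, per the labels' protocols. The authors deposited raw read counts per Ensembl gene, 1 table for the 20 libraries of the Tet1 cross (37991 genes) and 1 for the MF1 cross. Per the submitters' processing notes the tools were Trimmomatic, Bowtie 0.12.8, TopHat2 2.0.2 and HTSeq 0.5.3p9, with the mm9 build. How strand and multiply mapping reads were handled is not given in the sources used here, so counts of overlapping genes and near-identical copies, such as Ifitm1 with Ifitm3 or the Zfp genes, are uncertain.

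Symbols were found for 32919 identifiers. All 20 libraries of the cross were fitted together with edgeR 4.0.16 in R 4.3.3 (filterByExpr, minimum count 10 and minimum total 15, TMM scaling, robust quasi-likelihood fit with 1 coefficient for each of 10 groups, 10 residual degrees of freedom and a common biological coefficient of variation of 0.46). Every p is Benjamini-Hochberg adjusted over the 17567 genes kept and is edgeR's quasi-likelihood p unless another is named. CPM are counts-per-million of the TMM-scaled library, and log2 ratios are fitted, with a prior count of 0.125. Where a group had 0 counts, the fold is a bound with 3 counts in each of its libraries. The reads were amplified and carry no molecular identifiers, so a bound covers counting error only. The procedure was tested on simulated counts. Alternatives used DESeq2 1.42.0 and limma 3.58.1, and figures matplotlib 3.10.9 in Python 3.11.15. Promoter windows came from RefSeq (GRCm38.p6) and were matched by symbol for 12251 tested genes, the first listed window per gene. The E12.5 libraries labelled Tet1-KO carry no replicate number in the table, so they entered by group only.

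The members of the comparison and the gene lists were chosen with earlier results of these data known. Genes were named by a rule: Tet1, the 10 largest rises and falls by log2 ratio and the 10 largest changes in CPM among genes that passed, did not overlap between labels and reached 5 CPM in a group mean, up to 6 members with the smallest p from each list, the 5 largest differences from E12.5 in each direction, and 26 fixed germ cell and methylation genes. The text gives a part of them (some results are not reported here), and adds others from the lists that were chosen after their values were seen: Dppa4, Klf4, Tbx3, Lin28b, Rhox6, Stk31, Mov10l1, Rec8, Tex11, Spo11, Mest, Pecam1 and Brdt.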

Additional observations from a re-analysis of the deposited data

Results flagged for a closer look

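The results given here are genes whose E10.5 ratio (Tet1-KO over Tet1-WT, by label) differed from the mean of the 2 E12.5 ratios by a test of that difference in edgeR's quasi-likelihood fit. There were 104 such genes, 0.592% of all tested. Among the genes named, those more positive at E10.5 were Pla2g7 (adjusted p = 0.00655), Stag3 (0.0097), Tdrd7 (0.0097), Sycp3 (0.0121), Smc1b (0.0121), Hormad2 (0.0178), Slain1 (0.0218), Zfp345 (0.0248), Glis3 (0.0372), Epcam (0.0404), Dppa3 (0.0454) and Col1a1 (0.0454). Col1a1 was lower by more at E12.5, with a log2 ratio of -1.34 at E10.5, -5.11 in E12.5 females and -2.97 in E12.5 males.

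More negative at E10.5 were Zfp128 (adjusted p = 0.0059), Ptprj (0.0097), Zfp619 (0.012), Spp1 (0.0128), Zfp760 (0.0205), Trim45 (0.0205), Lrp8os2 (0.0291) and Col25a1 (0.0495). Zfp128, Ptprj, Spp1, Trim45 and Lrp8os2 had no count in either E10.5 library labelled Tet1-KO, so their fitted ratios are no measure of size. Zfp760 had 14.49 to 24.4 CPM in the 4 E12.5 libraries under Tet1-KO, against 14.3 to 28.3 CPM in the 4 under Tet1-WT, beside 9.53 and 6.90 CPM under the Tet1-KO label, against 48.4 and 52.7 CPM under Tet1-WT at E10.5.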

How the results depend on the processing

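With all 20 libraries 1547 genes passed at E10.5, 721 higher and 826 lower, and 104 passed the difference from E12.5. RLE scaling kept each count within 1.5 times and shared 1430 of the 1547 calls. DESeq2 gave 2819 (1119 higher, 1700 lower) and 677 for the difference, sharing 1541. Limma voom gave 2472 (1641 lower) and 36, and no filter on low counts 2578 (1522 lower) and 791. The 4 E10.5 libraries alone and the mesenchyme level as a covariate each gave 0 genes, with 0 higher and 0 lower, and the covariate gave 46 for the difference. Under the covariate Nr2f2 (log2 0.30), Meis1 (0.29) and Rpl13a (-0.00) changed sign and did not pass. Leaving out each E10.5 library gave 449 to 1924 genes, 218 to 819 higher and 231 to 1105 lower, and 73 to 406 for the difference, with the lowest counts without Tet1-WT replicate 2. A lone library left in a group was assumed to vary like the other groups.

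The deviations of same-numbered E10.5 libraries correlated at 0.0148 across genes, which with 2 pairs cannot show whether replicate numbers pair the samples. The Y-linked genes Ddx3y, Eif2s3y, Kdm5d and Uty were higher in replicate 2 than in replicate 1 under both labels. A replicate block was fitted at E10.5 only, because the E12.5 libraries labelled Tet1-KO carry no numbers. It gave 1766 genes (802 higher, 964 lower) and 180 for the difference. Of the 125 named genes that passed, 69 lost the call when Tet1-WT replicate 2 was left out and 47 when Tet1-KO replicate 1 was. Limma voom called 1641 of all 17567 genes as lower, against 826 in the main fit. Among them were 13 of 34 Hox genes, 13 of 39 collagens, 12 of 19 mesenchyme genes and 18 of 42 imprinted genes. The 2 libraries a group and the all-or-none counts of low genes limit what can be said of genes of a few CPM. The causes of these changes were not tested.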
